A study of Mus musculus with 12 samples.

Results

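Cardiac macrophage markers were followed across 12 libraries of mouse heart mRNA, with 3 libraries in each of 4 genotype groups. The members were chosen by gene name: Adgre1, Cd68, Csf1r, Fcgr1, Mrc1, Cd163, Lyz2, C1qa, C1qb and C1qc, that is, 10 of the 17379 genes in the table. All 10 passed the filter on low counts, as did 13849 genes in all. The compound mice carried HRCS96A on one allele together with homozygous MYBPC3Δ25bp, a 25 bp deletion. The HRC variant mice were heterozygous for HRCS96A, the MYBPC3 deletion mice were homozygous for MYBPC3Δ25bp, and the nontransgenic mice were C57BL/WT. All were 6 months old. The compound and HRC variant mice were all female, while the MYBPC3 deletion group and the nontransgenic group each held 2 males (replicates 1 and 2) and 1 female (replicate 3). The sources used here do not say how the alleles were made or which part of the heart was taken.

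Macrophages are the most numerous immune cells of the resting heart. They clear dying cells and debris, take up material shed by muscle cells and respond to injury. Their survival depends on the receptor Csf1r, the Fc receptor Fcgr1 binds antibody, Mrc1 and Cd163 are scavenger receptors of tissue-resident cells, and C1qa, C1qb and C1qc encode the chains of C1q, which starts the classical complement pathway. Since each library holds RNA of whole tissue, fewer macrophages and less RNA per macrophage cannot be told apart.

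The stretch of 250 bases before the transcription start is shown for C1qb, C1qc and Lyz2, which are among the members with the closest profiles across libraries, and for the pair whose profiles lay farthest apart (Fcgr1 and Cd163). The sequences are from RefSeq, build GRCm38.p6, 5′ to 3′ on the gene's strand. Capitals mark GAGGAA or its reverse complement TTCCTC, a form of the site bound by the macrophage factor PU.1. Lyz2 and Cd163 hold neither in this stretch, and other forms of the site were not searched. The start is that of the RefSeq promoter entry, and the annotated span of C1qc, Cd163 and Lyz2 begins upstream of it.
C1qb (chr4:136886201-136886450, minus strand): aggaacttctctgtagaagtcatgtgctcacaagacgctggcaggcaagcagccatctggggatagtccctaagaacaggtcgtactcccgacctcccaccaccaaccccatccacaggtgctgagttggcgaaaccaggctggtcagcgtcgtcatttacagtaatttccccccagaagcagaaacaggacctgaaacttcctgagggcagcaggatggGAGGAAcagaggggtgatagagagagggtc
C1qc (chr4:136892915-136893164, minus strand): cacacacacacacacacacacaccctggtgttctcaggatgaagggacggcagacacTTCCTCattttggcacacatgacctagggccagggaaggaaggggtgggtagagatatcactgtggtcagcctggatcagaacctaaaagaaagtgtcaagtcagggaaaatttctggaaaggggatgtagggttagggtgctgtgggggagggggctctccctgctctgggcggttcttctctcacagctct
Lyz2 (chr10:117282273-117282522, minus strand): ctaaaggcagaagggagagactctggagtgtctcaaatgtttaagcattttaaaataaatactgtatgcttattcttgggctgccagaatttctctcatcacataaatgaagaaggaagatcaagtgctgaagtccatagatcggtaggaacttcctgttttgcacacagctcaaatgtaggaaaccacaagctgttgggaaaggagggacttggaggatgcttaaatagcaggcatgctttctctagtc
Fcgr1 (chr3:96293970-96294219, minus strand): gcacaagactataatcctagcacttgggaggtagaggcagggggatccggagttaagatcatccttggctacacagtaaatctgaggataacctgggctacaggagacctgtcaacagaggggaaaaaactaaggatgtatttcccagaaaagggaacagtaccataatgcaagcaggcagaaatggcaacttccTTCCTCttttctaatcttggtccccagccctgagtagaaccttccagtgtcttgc
Cd163 (chr6:124304401-124304650, plus strand): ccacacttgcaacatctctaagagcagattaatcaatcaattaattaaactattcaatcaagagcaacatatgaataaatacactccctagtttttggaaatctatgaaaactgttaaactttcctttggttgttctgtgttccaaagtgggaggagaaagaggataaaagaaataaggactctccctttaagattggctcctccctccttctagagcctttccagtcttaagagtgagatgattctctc

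RefSeq promoters were matched for 7 of the 10 members: those of Cd68, Fcgr1, Mrc1, Cd163, Lyz2, C1qb and C1qc. Of the 7, 5 held GAGGAA on either strand in the window of 250 bases before to 50 after the start, against 28.3% of 32817 promoters. The 5 were Cd68, Fcgr1, Mrc1, C1qb and C1qc. The letters TTGCNNAA, recognised by C/EBP factors, occurred in 1 of 7 (Cd68), against 10.8% of all promoters. The letters TGCTGA, part of the site of MAF factors, occurred in 2 of 7 (Lyz2 and C1qb), against 19.5%. These matches describe letters in a window and do not show binding. In build GRCm38.p6 the 3 C1q genes lie side by side on the minus strand of chromosome 4 within 18700 bases, with C1qb (136880145 to 136886177), C1qc (136888838 to 136892932) and C1qa (136895916 to 136898844) in that order. The other members lie on 7 further chromosomes: Adgre1 on 17 (57358651 to 57483529), Cd68 on 11 (69664213 to 69666170), Csf1r on 18 (61096644 to 61131139), Fcgr1 on 3 (96282909 to 96293969), Mrc1 on 2 (14229414 to 14332023), Cd163 on 6 (124304630 to 124330529) and Lyz2 on 10 (117266597 to 117292909). The annotated span of Lyz2 includes Lyz1, and the values are for whole genes.

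The libraries held 15615182 to 20581197 counted reads. Heart muscle markers such as Myh6, Tnnt2 and Ryr2 summed to 85432 to 116201 CPM (reads scaled to a common library size, with TMM factors) in every library, as heart tissue would give. Summed atrial muscle markers were 267, 268 and 596 CPM in the compound libraries, 9699, 3262 and 316 in the HRC variant libraries, 6868, 4028 and 5898 in the MYBPC3 deletion libraries, and 3882, 9896 and 6309 in the nontransgenic libraries. All 3 compound libraries and HRC variant library 3 were therefore low in atrial transcripts. HRC variant library 1 stood apart from its group, with a summed level of the 10 members of 717 CPM, against 379 and 357 in the other two. B-cell markers summed to 98.4 CPM in MYBPC3 deletion library 2 and 61.1 CPM in nontransgenic library 2, against 5.50 to 11.8 in the other 10.

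Per transcript length, Lyz2, the lysozyme gene of macrophages and neutrophils, was the highest member, with a mean of 236 ± 60.1 TPM (a level per transcript length, SD over 12 libraries). It exceeded C1qb in all 12 libraries. Lyz2 shares 195 of its 1267 windows of 50 bases with Lyz1, its neighbour, so its level is uncertain. C1qb followed at 136 ± 35.7 TPM, C1qc at 125 ± 33.8 and C1qa at 104 ± 31.2. C1qb was above C1qc in 11 of 12 libraries, although their means differ by less than the spread. Cd68, a lysosomal membrane glycoprotein, averaged 32.7 ± 8.11 TPM and Csf1r, the receptor for the growth factor Csf1, averaged 27.8 ± 5.83 TPM, and these neighbours overlap. Mrc1, the mannose receptor, stood at 9.88 ± 2.00 TPM and Adgre1, an adhesion receptor used to identify mouse macrophages, at 6.96 ± 1.47. Cd163, the receptor for haemoglobin bound to haptoglobin, had 4.46 ± 1.45 TPM and Fcgr1, the high-affinity receptor for immunoglobulin G, had 1.81 ± 0.728 TPM, the lowest. Fcgr1 rested on 25.0 to 90.0 reads a library.

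**Figure D1:**
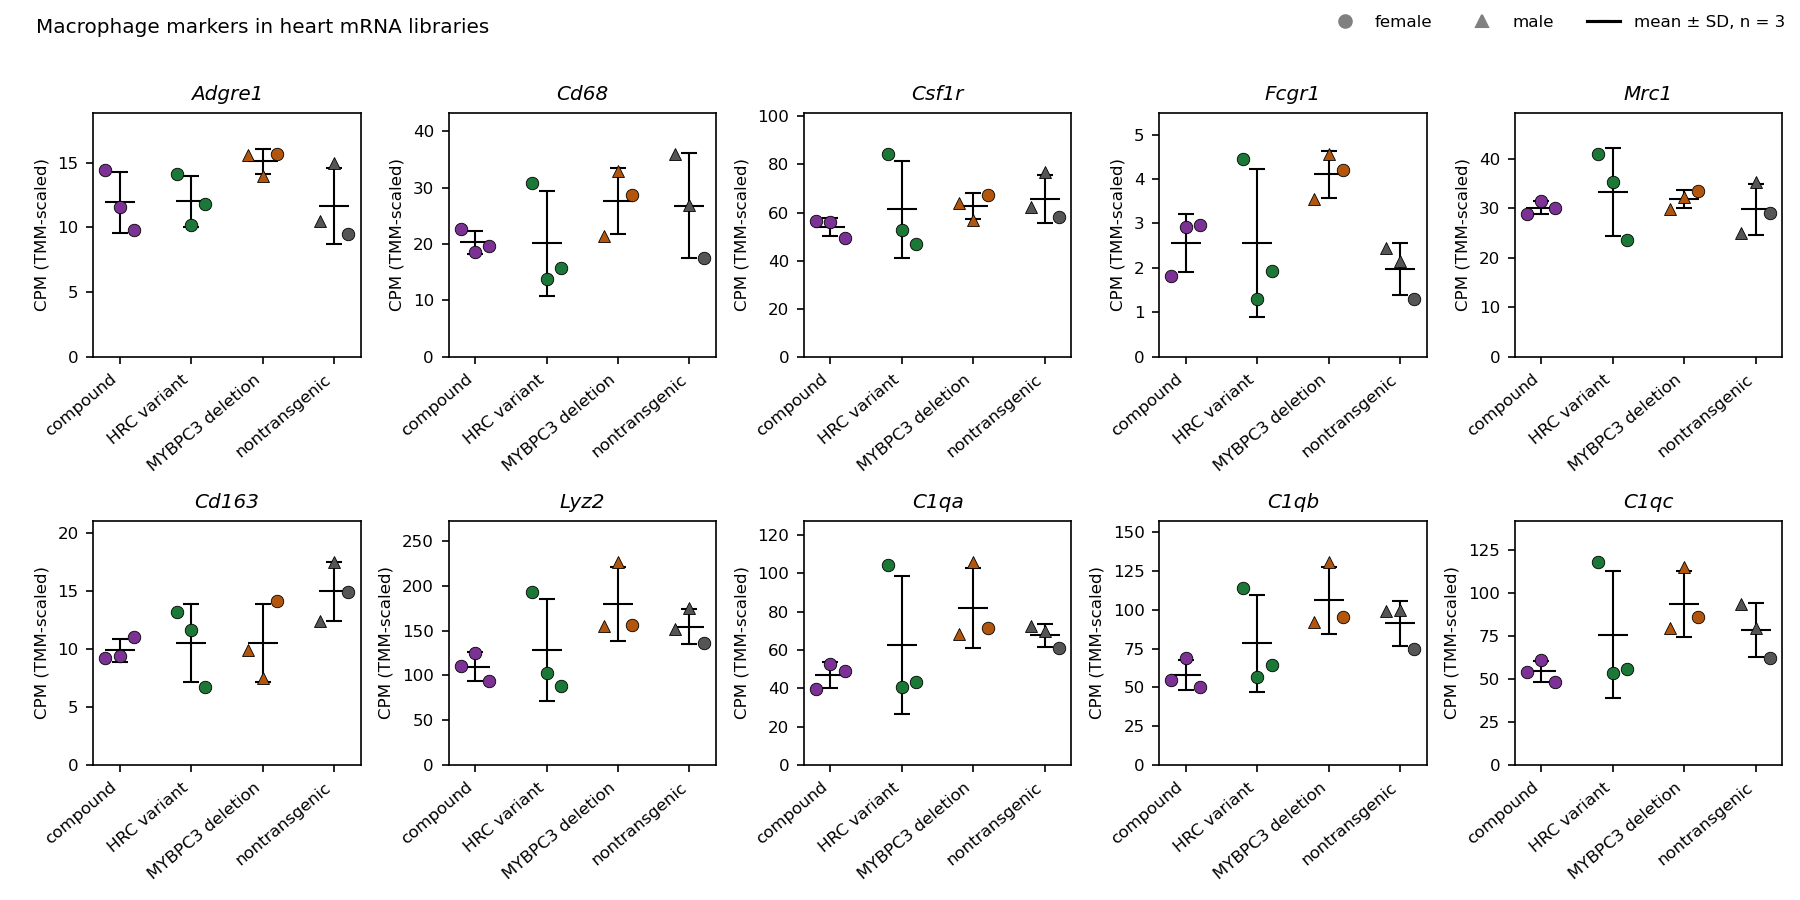
CPM (TMM-scaled) of each member in every library by group; circles are females, triangles males, and bars mean ± SD of 3 libraries. The compound libraries lie below all nontransgenic libraries for Csf1r, Cd163, Lyz2, C1qa, C1qb and C1qc, and HRC variant library 1 lies above the other 2 of its group for every member.

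By the group means, the C1q chains were lowest in the compound hearts, although no difference passed the test. C1qb stood at 54.6, 69.2 and 50.4 CPM in compound libraries, 114, 56.5 and 64.4 in HRC variant libraries, 92.0, 131 and 95.6 in MYBPC3 deletion libraries, and 99.4, 99.8 and 74.4 in nontransgenic libraries. The compound values lay below all MYBPC3 deletion and all nontransgenic values, while the HRC variant libraries overlapped every group. C1qc had 54.0, 60.7 and 48.1 CPM in compound libraries, 118, 53.3 and 55.5 in HRC variant libraries, 79.5, 115 and 85.8 in MYBPC3 deletion libraries, and 93.3, 79.6 and 61.9 in nontransgenic libraries. Its compound values were again below both groups without overlap. C1qa had 39.5, 52.6 and 49.0 CPM in compound libraries, 104, 40.8 and 43.1 in HRC variant libraries, 68.1, 106 and 71.2 in MYBPC3 deletion libraries, and 72.3, 69.9 and 60.8 in nontransgenic libraries. The female nontransgenic library was the lowest of its group for all 3 chains.

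With group and sex in the model, the compound minus nontransgenic log2 difference was -0.43 ± 0.29 (SE) for C1qb, with a 95% interval of -1.05 to 0.20, and edgeR's adjusted p was 0.901. It was -0.29 ± 0.34 for C1qc (adjusted p = 0.976, edgeR) and -0.35 ± 0.39 for C1qa (adjusted p = 0.976, edgeR). Against the MYBPC3 deletion hearts the compound difference of C1qb was -0.65 ± 0.28, with an interval of -1.27 to -0.04 and an edgeR adjusted p of 0.862. None of these passed the test. In a model without sex, which is confounded with group here, the C1qb differences were -0.65 and -0.87 (edgeR adjusted p of 0.464 and 0.229). Atrial markers summed to 267 to 596 CPM in compound libraries, and to 3882 CPM or more in every MYBPC3 deletion and nontransgenic library. In these comparisons the atrial level and the compound genotype can therefore hardly be told apart. A fit with the atrial level as a further term was chosen after seeing the data. In that fit C1qb was at -0.14 ± 0.38 against nontransgenic and -0.38 ± 0.37 against MYBPC3 deletion hearts. C1qa and C1qc were at 0.24 and 0.13 against nontransgenic hearts. Markers of some other cell types were lower too. Of 10 fibroblast markers, 9 were lower in compound than in nontransgenic hearts (median -0.29). Of these markers, 0 had an unadjusted edgeR p under 0.05 there, against 6.36% of all genes. All 10 were lower than in MYBPC3 deletion hearts (median -0.54), 5 at an unadjusted edgeR p under 0.05, against 5.73% of all genes. They summed to 3075 to 3708 CPM in compound, 4409 to 5051 in MYBPC3 deletion and 4161 to 4998 in nontransgenic libraries. Of 6 mesothelial markers, 6 were lower than in nontransgenic (median -0.69) and 5 lower than in MYBPC3 deletion hearts (median -0.84). All 6 Schwann cell markers were lower in both comparisons (medians -0.50 and -0.62). edgeR called 0 genes of these 3 lists. Other lists were mixed or higher. Of 10 heart muscle markers, 6 were higher in compound than in nontransgenic hearts (median 0.13). All 10 were higher than in MYBPC3 deletion hearts (median 0.24). Of 10 endothelial markers, 4 and 6 were higher in those comparisons (medians -0.11 and 0.07). Against nontransgenic hearts 4 of the 10 had an unadjusted edgeR p under 0.05, compared with 6.36% of all genes. All 4 were lower, among them Pecam1 (-0.38), Emcn (-0.52) and Eng (-0.64). Against MYBPC3 deletion hearts 2 had such a p, compared with 5.73% of all genes. edgeR called no endothelial marker. Of 9 pericyte and smooth muscle markers, 4 and 5 were higher (medians -0.01 and 0.02). This list mixes cell types that went different ways against nontransgenic hearts. Its smooth muscle contractile genes were all lower, Cnn1 by -2.30 ± 1.34, while Rgs5, Kcnj8 and Abcc9 were higher (0.30, 0.35 and 0.48). Cnn1 averaged 1.97 ± 0.965 CPM in compound, 25.7 ± 30.9 in MYBPC3 deletion and 10.4 ± 7.26 in nontransgenic hearts. None of the list was called. The part of atrial, fibroblast, mesothelial, Schwann, endothelial and smooth muscle cell content in the C1q result was not tested.

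The authors' deposited table holds DESeq2 q-values from a design that the sources used here leave unstated, and it made calls among the members. In the authors' deposited table the compound hearts had a log2 difference of -0.86 for C1qb against MYBPC3 deletion hearts, with a q-value of 0.000490. The authors' deposited q-values in that comparison were 0.00125 for C1qc, 0.00665 for C1qa and 0.00996 for Lyz2, among 716 genes called (4.24% of 16882). Against nontransgenic hearts the authors' deposited table called C1qb (q-value 0.0158) and C1qa (q-value 0.0436), among 407 genes (2.43% of 16747). It called no member in the other 3 pairs. A refit with DESeq2, chosen after seeing the data, without sex and on the groups compared alone, called 4 members in compound minus MYBPC3 deletion hearts, where it called 5.99% of all genes, and 2 in compound minus nontransgenic hearts, where it called 3.35%. On all 12 libraries, DESeq2 without sex called 1 member, C1qb, in compound minus MYBPC3 deletion hearts, and 1.68% of all genes. With HRC variant library 1 left out and no sex term, edgeR called C1qb there too, and 0.650% of all genes. On the groups compared without sex, edgeR called 0 members in both comparisons, against 1.19% of all genes in compound minus MYBPC3 deletion and 0.361% in compound minus nontransgenic hearts, and C1qb had an adjusted p of 0.0551 in compound minus MYBPC3 deletion hearts.

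Lyz2 had 111, 125 and 93.6 CPM in compound libraries, 193, 103 and 87.8 in HRC variant libraries, 155, 227 and 156 in MYBPC3 deletion libraries, and 152, 175 and 136 in nontransgenic libraries. The compound values lay below both the MYBPC3 deletion and the nontransgenic values. The compound minus nontransgenic log2 difference was -0.30 ± 0.31 and the compound minus MYBPC3 deletion difference -0.52 ± 0.31 (edgeR adjusted p of 0.969 and 0.903). Cd68 averaged 20.3 ± 2.13 CPM in compound, 20.1 ± 9.33 in HRC variant, 27.7 ± 5.84 in MYBPC3 deletion and 26.8 ± 9.25 in nontransgenic hearts (SD, n = 3 each), with overlapping ranges. Csf1r averaged 54.0 ± 3.87 CPM in compound, 61.4 ± 20.3 in HRC variant, 62.9 ± 5.34 in MYBPC3 deletion and 65.7 ± 9.87 in nontransgenic hearts. Its compound values of 56.3, 56.2 and 49.5 CPM lay below the MYBPC3 deletion values of 64.0, 57.0 and 67.5 and the nontransgenic values of 62.2, 76.9 and 58.1. Adgre1 averaged 11.9 ± 2.34, 12.0 ± 1.96 and 15.1 ± 0.954 CPM in compound, HRC variant and MYBPC3 deletion hearts and 11.7 ± 2.92 in nontransgenic hearts, with overlapping ranges.

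Fcgr1 had its highest mean in the MYBPC3 deletion hearts. It had 1.82, 2.92 and 2.96 CPM in compound libraries, 4.45, 1.31 and 1.94 in HRC variant libraries, 3.54, 4.57 and 4.20 in MYBPC3 deletion libraries, and 2.44, 2.16 and 1.31 in nontransgenic libraries. All MYBPC3 deletion values were above all nontransgenic values. The log2 difference was 1.09 ± 0.43, with a 95% interval of 0.16 to 2.03, and edgeR's adjusted p was 0.554, so the difference did not pass the test. Fcer1g, the signalling chain of this receptor, averaged 35.0 ± 11.1 CPM in MYBPC3 deletion and 20.9 ± 5.05 in nontransgenic hearts (log2 difference 0.77, adjusted p = 0.622, edgeR).

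Cd163 was lower in all altered groups than in the nontransgenic hearts by the mean. It had 9.23, 9.37 and 11 CPM in compound libraries, 13.2, 11.6 and 6.71 in HRC variant libraries, 9.92, 7.48 and 14.1 in MYBPC3 deletion libraries, and 12.4, 17.5 and 14.9 in nontransgenic libraries. Only the compound values lay below all nontransgenic values. Its log2 differences from nontransgenic were -0.84 ± 0.31 in compound, -0.75 ± 0.31 in HRC variant and -0.54 ± 0.25 in MYBPC3 deletion hearts, with edgeR adjusted p of 0.672, 0.728 and 0.613. Mrc1 averaged 30.1 ± 1.26 CPM in compound, 33.2 ± 8.92 in HRC variant, 31.8 ± 1.86 in MYBPC3 deletion and 29.8 ± 5.17 in nontransgenic hearts, with overlapping ranges. With the atrial level as a term the compound minus nontransgenic difference of Cd163 was -0.07 ± 0.30, though that level and the compound genotype can hardly be told apart.

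**Figure D2:**
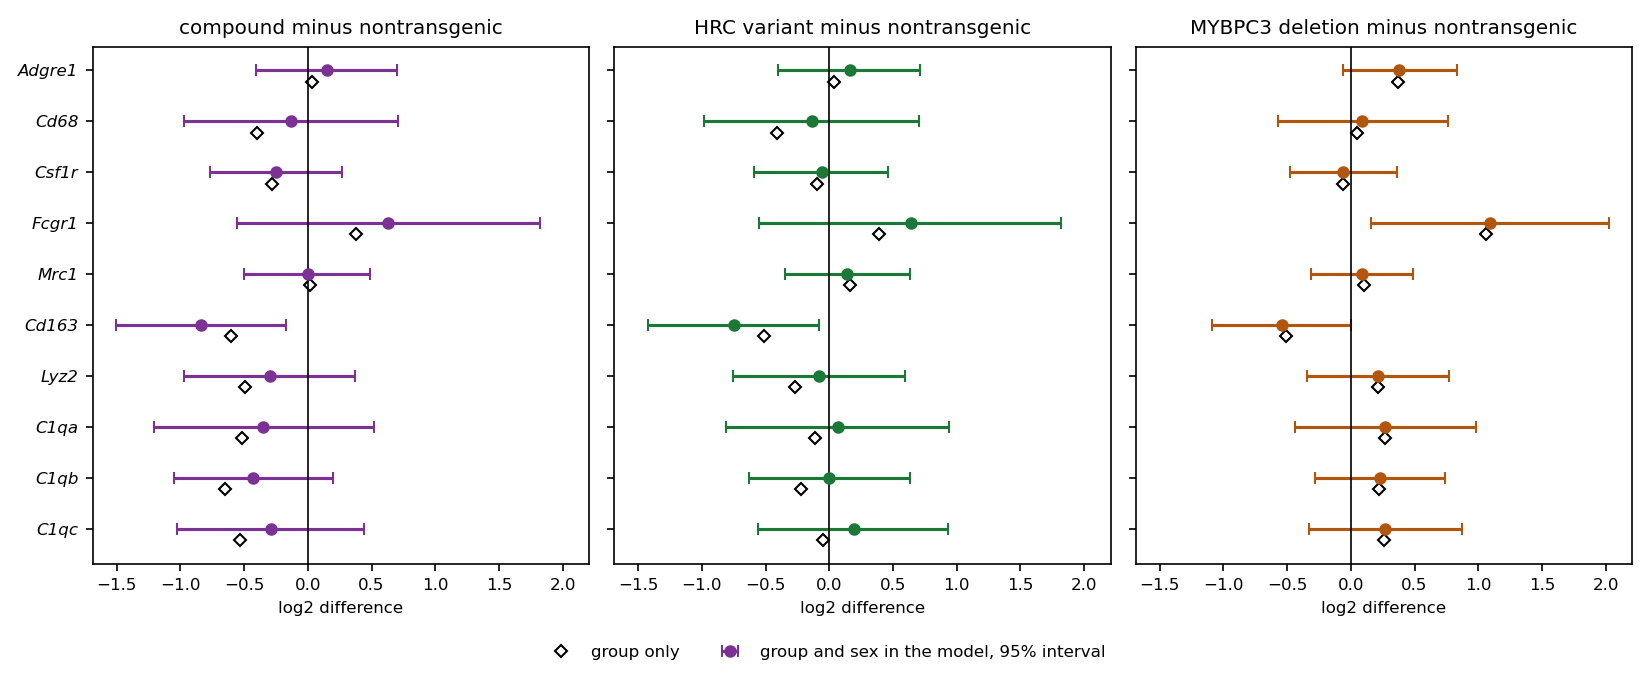
Log2 differences of the 10 members from nontransgenic hearts; filled circles and bars give the fit with group and sex and its 95% interval, open diamonds the fit with group only. For Cd163 the compound and HRC variant intervals lie below 0 (-1.51 to -0.17 and -1.42 to -0.08), and for Fcgr1 the MYBPC3 deletion interval lies above 0 (0.16 to 2.03).

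Across all genes, edgeR's quasi-likelihood test called 0 of 13849 genes (0%) in each of the 6 comparisons, and 0 of the 10 members; limma-voom called 0 genes too. DESeq2 called 38 genes in compound (0.275%), 25 in HRC variant (0.181%) and 92 in MYBPC3 deletion hearts (0.963%) against nontransgenic hearts, and 6 (0.0433%), 45 (0.332%) and 50 (0.864%) in compound minus MYBPC3 deletion, compound minus HRC variant and the interaction, that is, the compound difference minus what both single differences add up to. None of those was a member. DESeq2 gave no adjusted p to Fcgr1 in MYBPC3 deletion minus nontransgenic, nor in the interaction to members including Adgre1, Cd68, Fcgr1 and Cd163. Its shares are of the genes with an adjusted p, 9549 and 5790 in these 2 comparisons. At an unadjusted p under 0.05 there was 1 member in compound minus nontransgenic (Cd163; background 6.36% of genes), 1 in HRC variant minus nontransgenic (Cd163; 6.23%), 1 in MYBPC3 deletion minus nontransgenic (Fcgr1; 8.16%) and 1 in compound minus MYBPC3 deletion (C1qb; 5.73%). There was none in compound minus HRC variant (6.30%) or the interaction (8.54%). Each share of 1 in 10 is near the background.

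By direction alone, and counting Mrc1 at 0.00 as lower by its unrounded value, 8 of 10 members were lower in compound than in nontransgenic hearts, with a median log2 difference of -0.27 against 0.00 for all genes. All 10 were lower in compound than in MYBPC3 deletion hearts, with a median of -0.38 against 0.01, and 9 of 10 were lower than in HRC variant hearts, with a median of -0.16 against -0.01. In MYBPC3 deletion hearts 8 of 10 were higher than in nontransgenic hearts (median 0.22), and in HRC variant hearts 6 were (median 0.03). Without the sex term only 3 were higher in HRC variant hearts, with a median of -0.10, and the medians were -0.45 in compound minus nontransgenic and -0.56 in compound minus MYBPC3 deletion hearts. Fibroblast, mesothelial and Schwann cell markers, given above, were lower in the same compound hearts. The interaction had a median of -0.41 against -0.01 and was negative for 9 of 10. The members share libraries and 3 of them are neighbouring genes, so these counts are descriptions. The ranges did not overlap for 6 members in compound against nontransgenic hearts, all lower (10% of all genes), and for 6 in compound against MYBPC3 deletion hearts, all lower (13.7%). In MYBPC3 deletion against nontransgenic hearts it was 1, Fcgr1, higher (4.90%), and none lower (5.50%). None was higher in compound than in nontransgenic (8.79%) or MYBPC3 deletion hearts (11.5%). Between HRC variant and nontransgenic hearts 0 members were apart (4.18% of genes higher and 3.76% lower), and likewise between compound and HRC variant hearts (6.20% higher and 6.22% lower). With the atrial level as a term the members' median was 0.24 in compound minus nontransgenic and 0.03 in compound minus MYBPC3 deletion hearts. The atrial level and the compound genotype can hardly be told apart in these comparisons. Without MYBPC3 deletion library 3, the only female of its group, the compound minus MYBPC3 deletion median was 0.05.

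**Figure D3:**
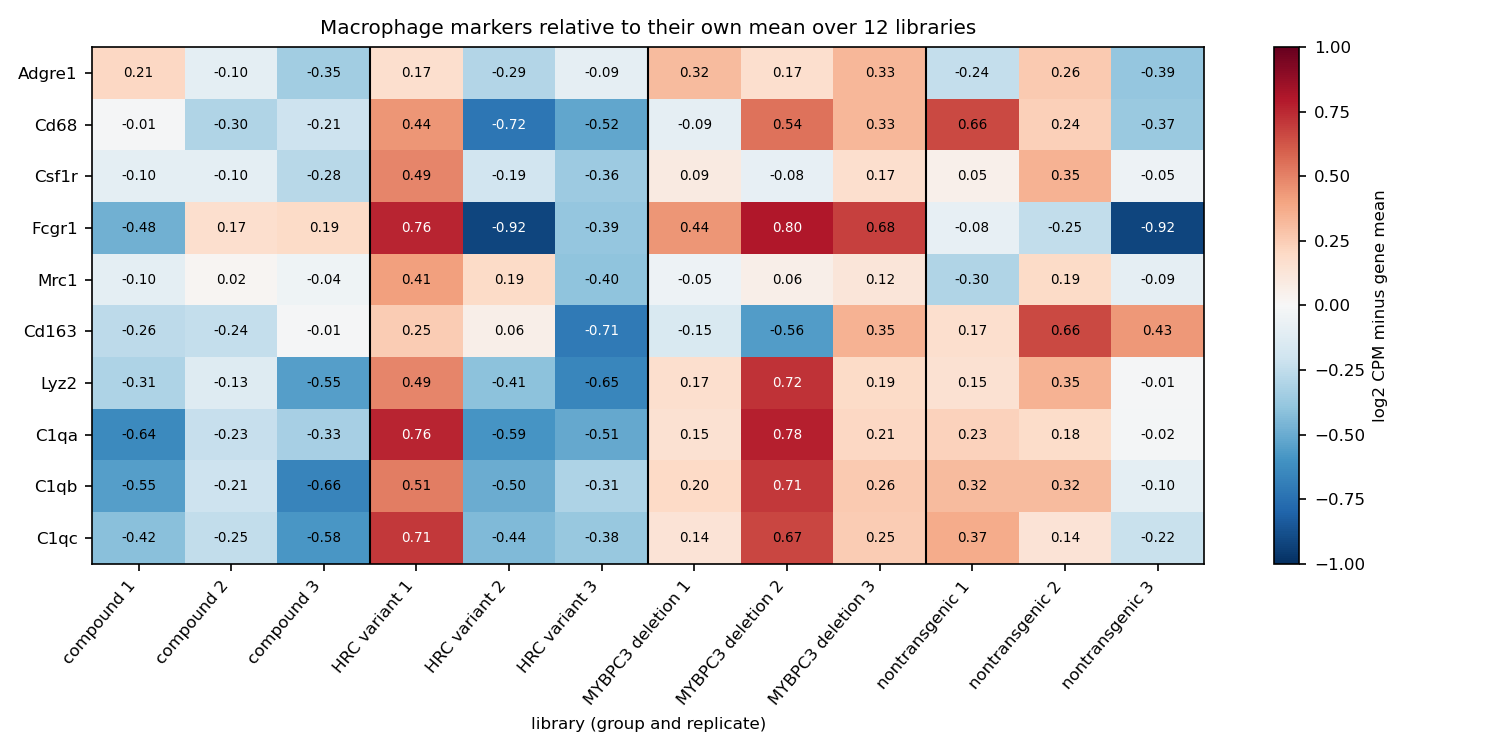
Log2 CPM of each member minus its own mean over the 12 libraries, with the value in each cell and red for higher. HRC variant library 1 is above the mean for all 10 members, with values of 0.17 to 0.76, as is MYBPC3 deletion library 3, and HRC variant library 3 is below it for all 10.

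For Mrc1 and Cd163, HRC variant library 3 lay farthest from the mean of the other 2 of its group (log2 -0.69 and -0.87). For every other member it was HRC variant library 1. Against the mean of the other 2 libraries of its group it was higher for 10 of 10 members, by a median of 0.97 on the log2 scale, with a range of 0.36 to 1.42, against a median of 0.03 over all genes. It also stood apart from all 11 other libraries in the beta-globin genes: Hbb-bs was at 7.72 CPM, against 278 to 1544, and Hbb-bt at 1.39 CPM, against 38.2 to 246, while the summed red blood cell markers, at 3251 CPM, lay within the range of the others. The median within-group SD of the members was 0.57 log2 units in HRC variant hearts, against 0.24 for all genes, while it was 0.19 in compound, 0.28 in MYBPC3 deletion and 0.25 in nontransgenic hearts, against 0.14, 0.25 and 0.25 for all genes. The same library was the highest of its group in fibroblast markers, at 7350 CPM against 4132 and 3159, and in atrial markers, at 9699 CPM against 3262 and 316. The part of these markers in the result was not tested. Without that library the median difference of the members from nontransgenic hearts was -0.36 in place of 0.03, and C1qa stood at -0.50 and C1qb at -0.36. MYBPC3 deletion library 2, which was rich in B-cell markers, was the highest of the 12 for 4 members (Fcgr1, Lyz2, C1qa and C1qb), and without both B-cell-rich libraries the MYBPC3 deletion median was 0.13.

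Ratios between members within a library do not depend on how libraries are scaled. The pairs below were chosen after their values were seen, and none was tested. The closest ratio was that of C1qb and C1qc: log2 C1qb over C1qc lay at 0.02, 0.19 and 0.07 in compound, -0.05, 0.08 and 0.22 in HRC variant, 0.21, 0.19 and 0.16 in MYBPC3 deletion, and 0.09, 0.33 and 0.27 in nontransgenic libraries. Their centred profiles differed by a root mean square of 0.10 log2 units, the smallest of 45 member pairs, and Fcgr1 and Cd163 by 0.74, the largest. C1qa and C1qc, and likewise Lyz2 and C1qb, differed by 0.14, and C1qa and C1qb by 0.15. Log2 Mrc1 over Cd163 was 1.65, 1.75 and 1.45 in compound, 1.63, 1.61 and 1.81 in HRC variant, 1.59, 2.10 and 1.25 in MYBPC3 deletion, and 1.01, 1.01 and 0.96 in nontransgenic libraries. All 9 libraries of altered hearts were above the 3 nontransgenic ones. Of the 45 pairs, 3 separated the 9 altered libraries from the nontransgenic libraries (Mrc1 with Cd163, Adgre1 with Cd163, and Cd68 with Fcgr1), as did 1.04% of all pairs of the 13424 tested genes with reads in every library. The pairs of Mrc1 and of Adgre1 share Cd163. Fcgr1 over Csf1r, on the same scale, was -4.95, -4.27 and -4.06 in compound, -4.25, -5.34 and -4.59 in HRC variant, -4.18, -3.64 and -4.01 in MYBPC3 deletion, and -4.67, -5.16 and -5.47 in nontransgenic libraries. The MYBPC3 deletion libraries were all above the nontransgenic ones. C1qb over Csf1r was -0.04, 0.30 and 0.02 in compound, 0.43, 0.10 and 0.46 in HRC variant, 0.52, 1.2 and 0.50 in MYBPC3 deletion, and 0.67, 0.38 and 0.36 in nontransgenic libraries. Here the compound libraries were below all MYBPC3 deletion and all nontransgenic libraries. Such gaps between 2 groups were common among the 45 member pairs. They held for 19 pairs in compound against nontransgenic and 12 in MYBPC3 deletion against nontransgenic libraries. In compound against MYBPC3 deletion libraries they held for 10. The share over all gene pairs was not computed for these comparisons.

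**Figure D4:**
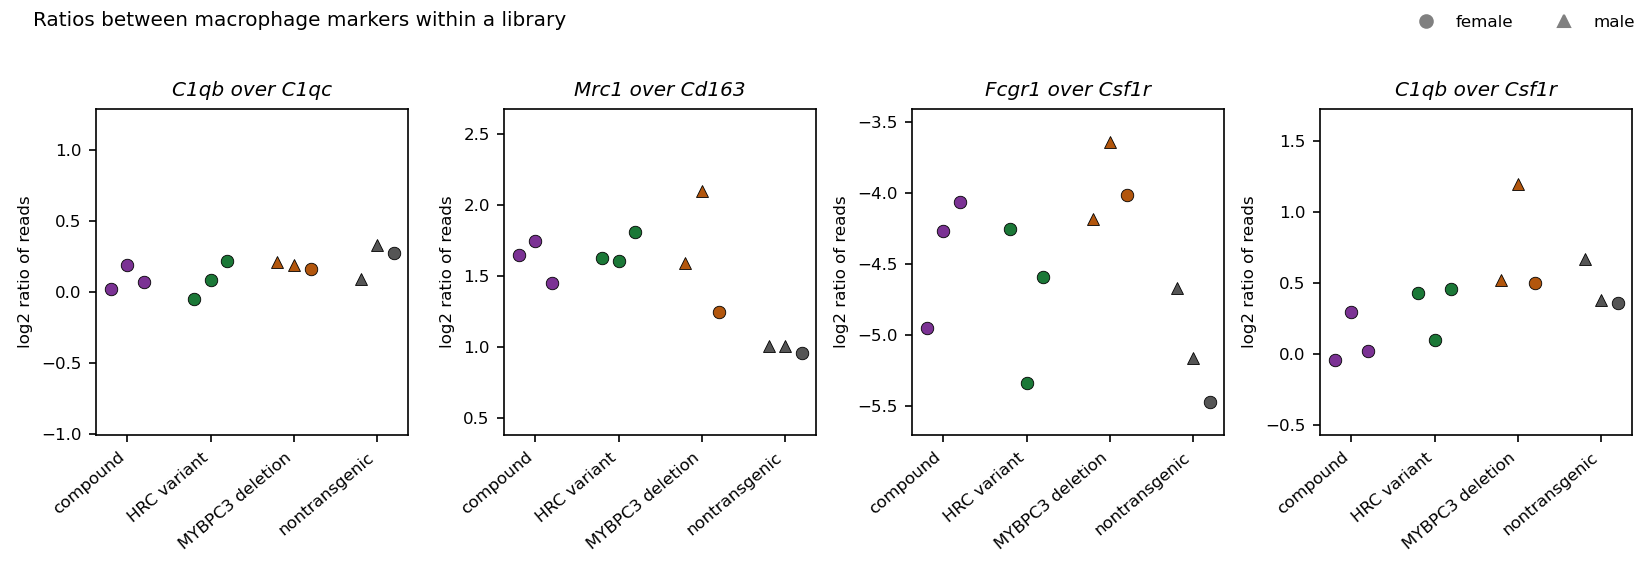
Log2 ratio of reads of 2 members within each library; circles are females and triangles males, and all panels span the same number of log2 units. C1qb over C1qc stays between -0.05 and 0.33, while Mrc1 over Cd163 is 0.96 to 1.01 in nontransgenic and 1.25 to 2.10 in the other libraries.

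Other macrophage genes, and genes of functions that macrophages share with other cells, were followed in lists. The libraries hold RNA of whole tissue, so these lists do not show which cells the RNA came from. Of 12 tissue-resident macrophage genes, 0 passed edgeR's test in compound minus nontransgenic, with 10 lower, a median of -0.32 and DESeq2 calling 1, Lyve1. Lyve1, a hyaluronan receptor of resident macrophages and lymphatic vessels, had 13.8, 20.7 and 18.2 CPM in compound, 32.9, 21.5 and 21.7 in HRC variant, 25.4, 25.4 and 37.9 in MYBPC3 deletion, and 27.0, 43.9 and 43.6 in nontransgenic libraries. Its compound minus nontransgenic log2 difference was -1.41 ± 0.26 (edgeR adjusted p = 0.268). Stab1, a scavenger receptor, was at 67.7 ± 8.39 CPM in compound and 90.6 ± 1.52 in nontransgenic hearts (adjusted p = 0.688, edgeR). Of 11 tested monocyte genes, 7 were higher and 4 lower in compound hearts, none called, with a median of 0.12, which was -0.50 without the sex term. Ccr2, a monocyte chemokine receptor, was at 1.88 ± 0.249 CPM in compound and 1.89 ± 1.63 in nontransgenic hearts, and with sex in the model its log2 difference was 1.14 ± 0.74. Of 10 regulators of the macrophage lineage, 8 were lower in compound hearts and 0 called. Nr1h3, a nuclear receptor for oxysterols, was at 23.8 ± 2.45 CPM in compound and 37.1 ± 2.08 in nontransgenic hearts (log2 difference -0.60, adjusted p = 0.630, edgeR). Runx1, of the same list, went the other way, at 2.73 ± 0.180 and 2.53 ± 0.958 CPM. With sex in the model its log2 difference was 0.76 ± 0.41 (adjusted p = 0.831, edgeR). Of 14 complement partners, 11 were lower in compound hearts and 0 called. Serping1, an inhibitor of C1, was at 203 ± 2.27 CPM in compound and 286 ± 12.2 in nontransgenic hearts (log2 difference -0.43, adjusted p = 0.817, edgeR). Against MYBPC3 deletion hearts all 14 complement partners were lower in compound hearts, none called, with a median of -0.37.

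Of 11 genes of Csf1r ligands and signalling, 6 were higher and 5 lower in compound than in nontransgenic hearts, with a median of 0.05, which was -0.20 without the sex term. The growth factor Csf1 was at 88.2 ± 6.62, 78.1 ± 12.2 and 75.5 ± 19.3 CPM in compound, HRC variant and MYBPC3 deletion hearts and 84.6 ± 4.35 in nontransgenic hearts. Of 6 further Fc receptor genes, 5 were higher in MYBPC3 deletion than in nontransgenic hearts, with a median of 0.28 and none called. Fcgr3, a low-affinity Fc receptor, was at 23.6 ± 2.73 CPM in MYBPC3 deletion and 17.7 ± 8.91 in nontransgenic hearts. Fcgr4, of the same list and at low counts, went the other way, with means of 0.731 and 1.87 CPM. The MYBPC3 deletion minus nontransgenic log2 difference of Fcgr4 was -1.27 ± 0.75 (adjusted p = 0.702, edgeR). Of 9 tested genes of scavenging and uptake of dying cells, 8 were lower in compound hearts, with a median of -0.41 and none called. Axl, a receptor for dying cells, differed by -0.58 ± 0.19 and Lrp1, a large endocytic receptor, by -0.72 ± 0.26 (edgeR adjusted p of 0.651 and 0.670). Of 9 haem and iron genes, 4 were higher and 5 lower in compound hearts. Hmox1, which breaks down haem, was at 18.5 ± 2.70 CPM in MYBPC3 deletion and 14.7 ± 2.28 in nontransgenic hearts, and Slc40a1, the iron exporter, differed by 0.86 ± 0.34 in compound minus nontransgenic hearts (adjusted p = 0.688, edgeR). Of 12 tested cytokine and chemokine genes, 7 were higher and 5 lower in compound hearts, with a median of 0.04 and none called. Without the sex term that median was -0.42. Lgals3, which encodes a galectin of activated macrophages, was at 4.06 ± 1.37 CPM in compound, 16.2 ± 14.2 in HRC variant, 17.9 ± 5.76 in MYBPC3 deletion and 18.6 ± 9.21 in nontransgenic hearts. In HRC variant libraries 1 to 3 Lgals3 was at 31.7, 12.9 and 3.88 CPM, where atrial markers summed to 9699, 3262 and 316 CPM. In nontransgenic libraries 1 to 3 it was at 8.04, 22.4 and 25.2 CPM, with atrial sums of 3882, 9896 and 6309. The part of the atrial level was not tested. The compound minus nontransgenic log2 difference of Lgals3 was -2.64 ± 0.80 (adjusted p = 0.662, edgeR). Tnf, at low counts, went the other way, with 0.614 ± 0.299 CPM in compound and 0.301 ± 0.289 in nontransgenic hearts. With sex in the model Tnf differed by 2.59 ± 1.02 (adjusted p = 0.688, edgeR). Of 17 lysosomal genes, 15 were lower in compound hearts with a median of -0.11, and 0 were called.

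**Figure D5:**
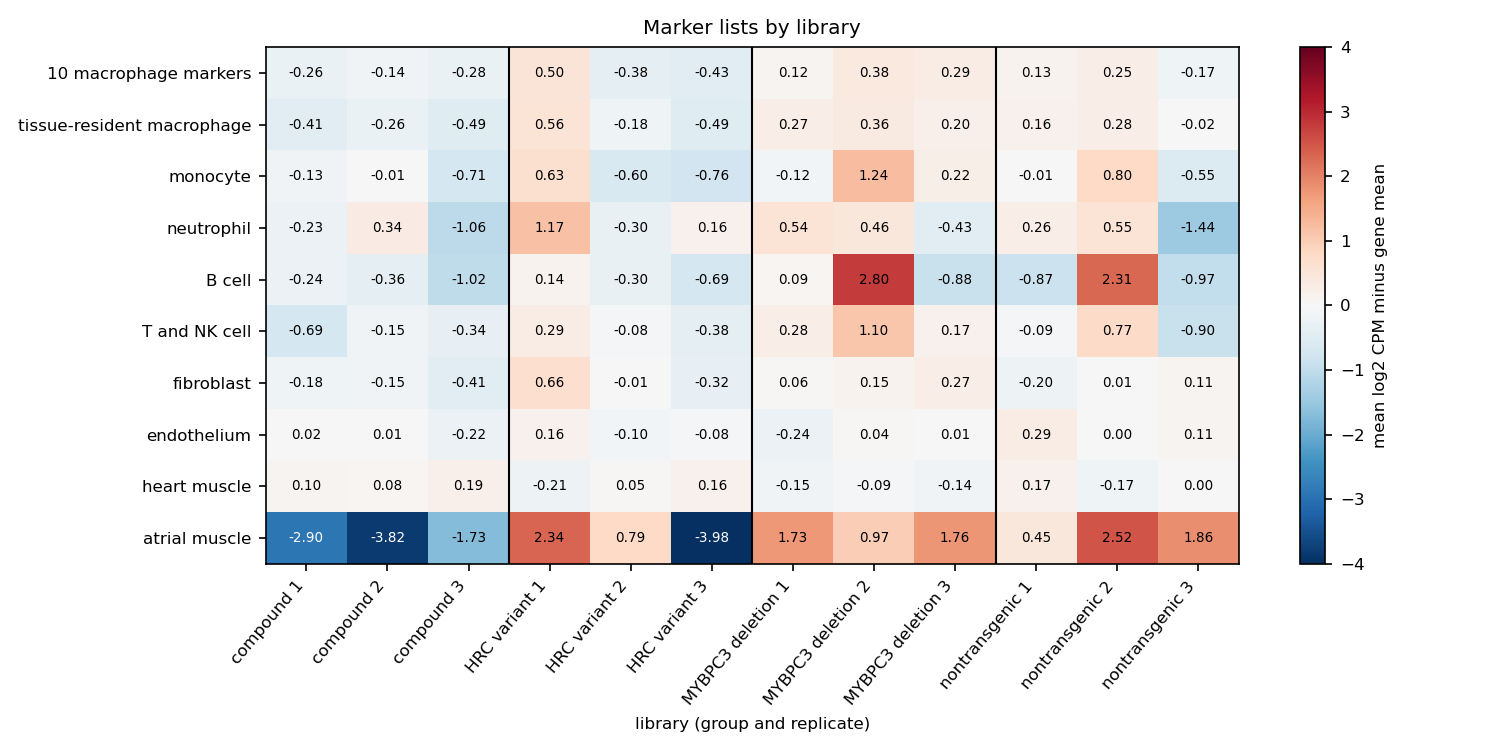
Mean log2 CPM minus gene mean of marker lists (rows) in each library (columns), with the value in each cell. The compound libraries are low for atrial muscle (-1.73 to -3.82), and the B-cell list is high in MYBPC3 deletion library 2 (2.80) and nontransgenic library 2 (2.31).

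The genes outside the members whose profile over the 12 libraries lay closest to the members' mean were Clic1, Unc93b1, Pmp22, Necap2, Sparc, Npc2, Cracr2b and Shisa5, at root mean square distances of 0.10 to 0.13 log2 units, out of 11595 searched. A flat profile lay at 0.30. Sparc encodes a matrix protein made by fibroblasts and Npc2 a lysosomal cholesterol carrier.

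The estimated female minus male log2 difference, which came from the MYBPC3 deletion and nontransgenic groups alone, was between -0.36 (Cd68) and 0.35 (Cd163) for the members. None passed the test, with edgeR adjusted p of at least 0.543. In nontransgenic hearts the female was below both males for 8 of 10 members, and in MYBPC3 deletion hearts for none.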

How the data were processed

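Heart mRNA of 12 mice was sequenced, and for each gene and library the authors deposited expected counts and TPM, besides log2 fold changes and q-values between groups, per the file headers. Submitters' processing notes list the programs HISAT, Bowtie2 and DESeq2 and the build GRCm38.p6, while the sources used here leave out versions, counting rule and strand. Of the deposited counts, 94.3% were whole. Counts were rounded, genes filtered at a minimum count of 10, and libraries TMM-scaled (edgeR 4.0.16, R 4.3.3). A robust quasi-likelihood fit over all 12 libraries had group and sex as terms, with 7 residual degrees of freedom. Benjamini-Hochberg adjustment covered 13849 genes, with a threshold of 0.05. Fits of DESeq2 1.42.0 and limma 3.58.1 (voom), other filters, samples and terms were alternatives, of which 5 were chosen after seeing the data. The fit was tested on simulated data. Fold changes in the authors' deposited table were turned so that the altered or compound group is on top. A further 12 columns of per-sample values were not used. The p-values measure the spread between libraries, which may be partly technical.

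Members and lists were chosen with earlier results of these data known. All 10 members are named, up to 4 genes of each list with the smallest p against nontransgenic hearts, and the 8 nearest profiles among genes with a mean log2 CPM of at least 1 (prior count 2). A gene of the complement list is not reported here.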

Additional observations from a re-analysis of the deposited data

How the results depend on the processing

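No member was called by edgeR's quasi-likelihood test in any of the 6 comparisons, and this held under DESeq2, limma-voom, the likelihood ratio test, both other filters, females only, the replicate block and each library left out. The exceptions were 3 of the 5 fits added after seeing the data, all without the sex term. DESeq2 without it called 1 member in compound minus MYBPC3 deletion (1.68% of all genes). When only the groups compared entered, it called 4 there (5.99%) and 2 in compound minus nontransgenic (3.35%). Without HRC variant library 1 and the sex term, edgeR called 1 member in compound minus MYBPC3 deletion (0.650%).

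The number of genes called, 0 in all 6 comparisons by the quasi-likelihood test, changed with the tool. In the order compound, HRC variant and MYBPC3 deletion minus nontransgenic, compound minus MYBPC3 deletion, compound minus HRC variant, and interaction, DESeq2 called 38, 25, 92, 6, 45 and 50 genes. The likelihood ratio test called 42, 10, 15, 4, 33 and 14 in that order, and DESeq2 without the sex term 153, 22, 44, 232, 35 and 14. DESeq2 without the sex term on the groups compared called 464, 17, 15, 829 and 74 in the first 5. With edgeR on the groups compared, the counts were 15, 1 and 47 genes (compound and MYBPC3 deletion minus nontransgenic, compound minus MYBPC3 deletion) with the sex term, and 50, 1 and 165 without it. Without HRC variant library 1 and the sex term the counts were 15 in compound minus nontransgenic, 15 in HRC variant minus nontransgenic, 90 in compound minus MYBPC3 deletion, and 4 each in compound minus HRC variant and the interaction. With libraries left out in turn, the genes called ranged over 0 to 3, 0 to 8, 0 to 0, 0 to 0, 0 to 13 and 0 to 5. The highest counts came without HRC variant library 1 (8 and 5) or HRC variant library 3 (3 and 13). The replicate numbers did not pair the samples: 5 of 18 same-number pairs had a correlation of deviations over 0.1, with a range of -0.24 to 0.316. The fit with a replicate block called 1 gene in the interaction and none in the other 5 comparisons.

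The median log2 difference of the 10 members moved by more than the spread between replicates in these fits. With the atrial marker level as a term it was 0.24 in compound minus nontransgenic and 0.03 in compound minus MYBPC3 deletion, where that level can hardly be told apart from genotype. Without HRC variant library 1 and the sex term it was -0.55 in HRC variant minus nontransgenic and -0.09 in the interaction. With libraries left out in turn it ranged from -0.36 to 0.15 in HRC variant minus nontransgenic, from -0.50 to 0.05 in compound minus MYBPC3 deletion and from -0.54 to -0.09 in the interaction. The low end of the first and the high end of the last came without HRC variant library 1, and 0.05 came without MYBPC3 deletion library 3, the only female of its group.

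Of the single member differences, none of them called in the fit reported, 162 of 1590 changed direction over all settings, and the cause was not tested.

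For compound minus nontransgenic, the following changed direction. Adgre1, at 0.15, became -0.02 with the replicate block, and -0.17 to 0.33 with libraries left out in turn. Cd68, at -0.13, became 0.21 in females and with only the groups compared, 0.23 with the atrial term, and -0.69 to 0.21 with libraries left out in turn. Csf1r, at -0.25, became 0.24 with the atrial term. Mrc1, at 0.00, became 0.02 without the sex term, under DESeq2 without sex, under DESeq2 without sex on the groups compared, under edgeR without sex on the groups compared and without HRC variant library 1 and sex, 0.00 under limma-voom, without the filter and at a minimum count of 30, 0.06 in females and with only the groups compared, 0.07 without both B-cell-rich libraries, 0.57 with the atrial term, and -0.10 to 0.08 with libraries left out in turn. Lyz2, at -0.30, became 0.25 with the atrial term. C1qa, at -0.35, became 0.24 with the atrial term. C1qc, at -0.29, became 0.13 with the atrial term.

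For HRC variant minus nontransgenic, the following changed direction. Adgre1, at 0.16, became -0.08 without HRC variant library 1 and sex, and -0.16 to 0.34 with libraries left out in turn. Cd68, at -0.14, became 0.20 in females and with only the groups compared, and -0.71 to 0.19 with libraries left out in turn. Csf1r, at -0.06, became 0.08 in females and with only the groups compared, 0.03 without both B-cell-rich libraries, 0.13 with the atrial term, and -0.35 to 0.10 with libraries left out in turn. Fcgr1, at 0.64, became -0.26 without HRC variant library 1 and sex, and -0.02 to 0.96 with libraries left out in turn. Mrc1, at 0.14, became -0.11 with the replicate block, -0.01 without HRC variant library 1 and sex, and -0.03 to 0.34 with libraries left out in turn. Lyz2, at -0.08, became 0.11 with the atrial term, and -0.49 to 0.13 with libraries left out in turn. C1qa, at 0.07, became -0.11 without the sex term and under edgeR without sex on the groups compared, -0.09 under limma-voom, -0.18 with the replicate block, -0.04 without both B-cell-rich libraries, -0.12 under DESeq2 without sex and under DESeq2 without sex on the groups compared, -0.68 without HRC variant library 1 and sex, and -0.50 to 0.29 with libraries left out in turn. C1qb, at 0.00, became -0.22 without the sex term and under edgeR without sex on the groups compared, -0.07 under limma-voom, 0.00 without the filter, -0.24 with the replicate block, -0.05 without both B-cell-rich libraries, -0.23 under DESeq2 without sex and under DESeq2 without sex on the groups compared, -0.58 without HRC variant library 1 and sex, and -0.36 to 0.18 with libraries left out in turn. C1qc, at 0.19, became -0.05 without the sex term and under edgeR without sex on the groups compared, -0.14 with the replicate block, -0.06 under DESeq2 without sex and under DESeq2 without sex on the groups compared, -0.51 without HRC variant library 1 and sex, and -0.28 to 0.37 with libraries left out in turn.

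For MYBPC3 deletion minus nontransgenic, the following changed direction. Cd68, at 0.09, became -0.02 without both B-cell-rich libraries, and -0.20 to 0.34 with libraries left out in turn. Csf1r, at -0.06, became 0.23 in females, 0.13 without both B-cell-rich libraries, and -0.19 to 0.06 with libraries left out in turn. Mrc1, at 0.09, became -0.03 to 0.26 with libraries left out in turn.

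For compound minus MYBPC3 deletion, the following changed direction. Adgre1, at -0.24, became -0.39 to 0.11 with libraries left out in turn. Cd68, at -0.22, became 0.13 with the atrial term, and -0.49 to 0.41 with libraries left out in turn. Csf1r, at -0.19, became 0.29 with the atrial term, and -0.31 to 0.09 with libraries left out in turn. Fcgr1, at -0.46, became 0.05 with the atrial term, and -0.70 to 0.14 with libraries left out in turn. Mrc1, at -0.10, became 0.45 with the atrial term, and -0.17 to 0.01 with libraries left out in turn. Cd163, at -0.30, became 0.45 with the atrial term, and -0.51 to 0.18 with libraries left out in turn. Lyz2, at -0.52, became 0.01 with the atrial term.

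For compound minus HRC variant, the following changed direction. Adgre1, at -0.01, became 0.08 with the atrial term, 0.12 without HRC variant library 1 and sex, and -0.17 to 0.12 with libraries left out in turn. Cd68, at 0.01, became -0.19 to 0.45 with libraries left out in turn. Csf1r, at -0.19, became 0.12 with the atrial term, 0.11 without HRC variant library 1 and sex, and -0.35 to 0.11 with libraries left out in turn. Fcgr1, at 0.00, became 0.00 under DESeq2, in females, without both B-cell-rich libraries and under DESeq2 without sex, 0.13 under limma-voom, 0.01 without the filter, with only the groups compared, under DESeq2 without sex on the groups compared and under edgeR without sex on the groups compared, 0.07 with the replicate block, 0.33 with the atrial term, 0.66 without HRC variant library 1 and sex, and -0.30 to 0.66 with libraries left out in turn. Mrc1, at -0.14, became 0.20 with the atrial term, 0.03 without HRC variant library 1 and sex, and -0.34 to 0.03 with libraries left out in turn. Cd163, at -0.09, became 0.38 with the atrial term, 0.10 without HRC variant library 1 and sex, and -0.33 to 0.10 with libraries left out in turn. Lyz2, at -0.22, became 0.14 with the atrial term, 0.20 without HRC variant library 1 and sex, and -0.43 to 0.20 with libraries left out in turn. C1qa, at -0.41, became 0.16 without HRC variant library 1 and sex, and -0.63 to 0.16 with libraries left out in turn.

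For the interaction, the following changed direction. Cd68, at -0.08, became 0.01 under limma-voom, 0.03 without both B-cell-rich libraries, 0.14 with the atrial term, 0.40 without HRC variant library 1 and sex, and -0.34 to 0.36 with libraries left out in turn. Csf1r, at -0.12, became 0.16 with the atrial term, 0.17 without HRC variant library 1 and sex, and -0.29 to 0.17 with libraries left out in turn. Mrc1, at -0.24, became 0.08 with the atrial term. Cd163, at 0.45, became -0.02 in females.

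Values printed as 0.00 differed in sign before rounding. The p-values measure the spread between 3 libraries a group, and the labels do not say more on how the replicates were taken. Sex is estimated from the groups that hold both sexes alone. Fcgr1, with 25 to 90 reads a library, is the least precisely counted member.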
